A study of Mus musculus with 10 samples.

Results

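The genes described here are 35 genes of the G2 phase and of mitosis, taken by symbol from the 20813 genes of the deposited table. They were chosen for their known function, and all 35 are in the table and passed the filter on low values (a mean of at least 10 normalized counts). RNA was sequenced from leukemic spleens of C57BL/6 mice that had received T-ALL cells (T-cell acute lymphoblastic leukemia, a fast-growing malignancy of T cell precursors), after lysis of red cells. Every leukemia carried a conditional Sirt1 allele, and every recipient was irradiated below the lethal dose before intravenous injection. The 5 samples labelled Sirt1-deleted belong to the tamoxifen arm (3 mg per mouse, injected into the peritoneum in corn oil) and the 5 controls to the arm given corn oil alone, so genotype and drug cannot be told apart; the arm of each sample is read from the abbreviations TMX and VEH in its title. The spleens also hold cells of the host. The labels name neither the Cre transgene, nor the age of the mice or the time between injection and collection. Nor do they say whether the recipients of a group carry separate leukemias, so the p-values measure only the spread between these samples.

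The deposited normalized counts summed to between 33660245 and 34471964 per sample, and raw depth is unknown because the values are already scaled. Sirt1 itself, the targeted gene, averaged 1810.5 ± 62.5 normalized counts over the 5 controls and 1873 ± 146 over the 5 samples carrying the deletion label (± SD, here and throughout; log2 difference 0.05, limma adjusted p = 0.568), so the gene-level value does not separate the labels. Which exons the allele removes is not given in the sources used here, and a sum over whole transcripts may not report on them. The group is therefore called labelled Sirt1-deleted, or deletion-labelled, throughout. The 12 T lineage markers were all detected in every sample, with summed counts of 236094 to 252007 in controls and 244663 to 273989 in deletion-labelled samples.

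Cells enter mitosis when cyclin B and its kinase Cdk1 become active, which requires removal of inhibitory phosphates by Cdc25 phosphatases. Polo and Aurora kinases then build the spindle, the spindle checkpoint holds sister chromatids together until every kinetochore is attached, and the anaphase-promoting complex (APC/C) ends the process by marking securin and cyclin B for destruction. Transcripts of these proteins are made mainly in G2, through the factors FOXM1 and MYBL2 and the MuvB complex, and are repressed outside that phase by a MuvB complex that contains RB-family proteins (DREAM). In T-ALL, as in other fast-growing leukemias, they are read as a sign of how many cells are dividing.

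Of the 35 genes, 14 fell in the deletion-labelled samples, 4 rose and 17 did not pass the threshold (limma on log2(normalized count + 1), Benjamini-Hochberg adjusted p under 0.05 over all 15276 tested genes). Among all tested genes, 19.4% fell and 16.8% rose. Of the members, 40% fell and 11.4% rose. Highly expressed genes were called lower more often in this data set: among the 7498 genes with a mean at least that of the lowest member (688 normalized counts), 30.9% fell and 17.4% rose. These genes share only that floor with the members and were not matched to their expression. The sizes were modest. The median log2 difference of the 35 genes was -0.17 (over all tested genes it was -0.00014), and the members ranged from -0.62 for Bub1b to 0.24 for Pttg1. The number of falls depended on single samples: it was 9 without control replicate 5, deletion-labelled replicate 7 or deletion-labelled replicate 8, where 15.9%, 15.9% and 17.2% of all tested genes fell. It was 22 without deletion-labelled replicate 10 (21.9% of all genes) and 22 with limma sample weights (21.8%). An exact rank-sum test called 7 members lower (12.9% of all genes). Because these are bulk spleens, fewer dividing cells and less of a transcript per dividing cell cannot be told apart.

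**Figure D1:**
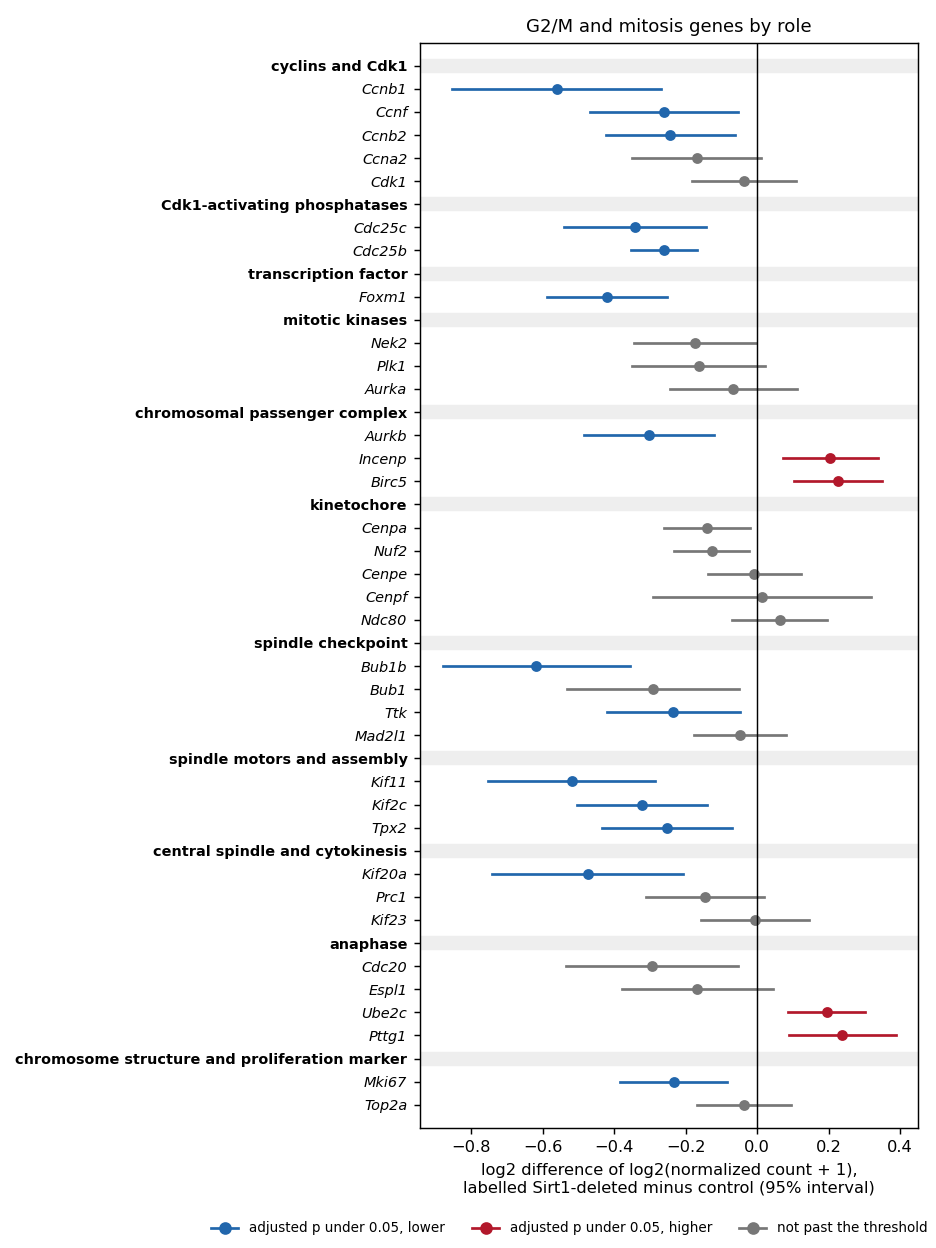
Log2 difference of each of the 35 genes (point) with its 95% interval (line), on the scale log2(normalized count + 1), labelled Sirt1-deleted minus control, n = 5 samples per group, grouped by role. Blue marks the 14 genes that fell and red the 4 that rose at a limma adjusted p under 0.05, and grey the 17 that did not pass; the points run from -0.62 (Bub1b) to 0.24 (Pttg1).

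The groups did not overlap for 10 members, of which 7 were lower (Bub1b, Kif11, Kif20a, Foxm1, Cdc25c, Kif2c and Cdc25b) and 3 higher (Ube2c, Birc5 and Pttg1). This is 20% of the members lower and 8.57% higher. Among all tested genes 12.9% and 11.1% were separated in this way, and among the 7498 genes above the floor of 688 normalized counts 21.4% and 12.4%. Such separation was thus about as frequent in the members as in those genes, which were not matched in expression. For each of the 10 the exact permutation p was 0.00794, two-sided and unadjusted, the smallest that 252 assignments of the samples allow. That value follows from the separation by which the 10 were picked, so it adds no support. The same 7 lower members, with Ube2c and Birc5, kept their call in each of the 10 alternatives that used all samples and in each of the 10 fits that left out 1 sample. The exact rank-sum test, 1 of these alternatives, can call only genes whose groups do not overlap. No member with overlapping groups could therefore keep its call in all of them. Ccnb1 and Aurkb lost their calls in that test only.

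Promoter sequence was examined because many members fell together while a few rose. RefSeq promoter windows (GRCm38.p6, 250 bases before to 50 after each start) were found for 28 of the 35 genes; Aurkb, Ccna2, Cdc25c, Foxm1, Incenp, Kif20a and Tpx2 had none. Letters of the CHR element, which MuvB complexes recognise, were searched as TTTGAA or TTTAAA, and the CCAAT box, bound by the factor NF-Y, as CCAAT, each on both strands. A CHR match was in 78.6% of the 28 members against 30.6% of all 27025 genes with a window, and a CCAAT match in 78.6% against 41.1%. Both were present in 67.9% of members and in 12.2% of all genes. Such matches were frequent in other mitosis genes too. Of 84 listed by function, 71 had a window, with a CHR match in 66.2%, a CCAAT match in 69.0% and both in 50.7%. By response, 7 of the 9 lower members with a window held both, as did 1 of the 3 higher members and 11 of the 16 that did not pass. With 3 higher members, no difference between the classes can be read from these counts, and a match in letters is not a shown binding site. The windows below, printed from 250 bases before to 30 after the start on the gene's strand, are 4 members that fell (Ccnb1, Bub1b, Kif11, Cdc25b) and the 3 with a window that rose (Ube2c, Birc5, Pttg1). Capitals mark each match, and matches that overlap run together.
Ccnb1 (chr13:100786457-100786736, minus strand): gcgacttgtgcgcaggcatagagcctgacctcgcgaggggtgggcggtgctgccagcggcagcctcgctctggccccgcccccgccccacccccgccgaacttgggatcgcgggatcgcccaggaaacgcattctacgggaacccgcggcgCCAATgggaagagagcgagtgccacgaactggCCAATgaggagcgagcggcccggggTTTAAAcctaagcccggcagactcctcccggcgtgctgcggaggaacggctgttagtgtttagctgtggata
Bub1b (chr2:118597961-118598240, plus strand): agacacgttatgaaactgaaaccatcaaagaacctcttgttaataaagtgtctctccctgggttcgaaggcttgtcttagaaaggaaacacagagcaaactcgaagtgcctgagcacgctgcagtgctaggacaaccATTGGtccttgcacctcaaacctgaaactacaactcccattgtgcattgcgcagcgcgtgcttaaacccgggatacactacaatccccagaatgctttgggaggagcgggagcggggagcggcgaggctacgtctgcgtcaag
Kif11 (chr19:37376132-37376411, plus strand): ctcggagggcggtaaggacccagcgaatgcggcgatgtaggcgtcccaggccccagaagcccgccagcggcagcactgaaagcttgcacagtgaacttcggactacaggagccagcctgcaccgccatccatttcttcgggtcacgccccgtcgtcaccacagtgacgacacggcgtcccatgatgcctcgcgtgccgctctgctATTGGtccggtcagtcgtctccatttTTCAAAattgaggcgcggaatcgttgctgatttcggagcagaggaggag
Cdc25b (chr2:131186698-131186977, plus strand): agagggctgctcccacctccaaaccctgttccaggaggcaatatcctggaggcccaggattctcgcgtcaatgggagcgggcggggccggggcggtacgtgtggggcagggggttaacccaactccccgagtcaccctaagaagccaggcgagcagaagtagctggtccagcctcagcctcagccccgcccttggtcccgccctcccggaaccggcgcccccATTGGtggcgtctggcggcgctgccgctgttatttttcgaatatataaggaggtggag
Ube2c (chr2:164769679-164769958, plus strand): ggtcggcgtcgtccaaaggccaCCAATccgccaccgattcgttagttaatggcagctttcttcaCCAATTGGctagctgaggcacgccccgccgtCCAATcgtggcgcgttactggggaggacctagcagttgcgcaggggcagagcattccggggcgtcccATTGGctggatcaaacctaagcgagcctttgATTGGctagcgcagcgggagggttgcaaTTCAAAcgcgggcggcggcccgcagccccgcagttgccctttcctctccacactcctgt
Birc5 (chr11:117848987-117849266, plus strand): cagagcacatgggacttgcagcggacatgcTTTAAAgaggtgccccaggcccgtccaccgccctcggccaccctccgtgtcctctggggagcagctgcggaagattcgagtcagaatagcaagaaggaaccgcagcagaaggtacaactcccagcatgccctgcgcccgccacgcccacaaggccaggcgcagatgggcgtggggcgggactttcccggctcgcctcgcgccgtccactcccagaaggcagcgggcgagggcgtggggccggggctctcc
Pttg1 (chr11:43425952-43426231, minus strand): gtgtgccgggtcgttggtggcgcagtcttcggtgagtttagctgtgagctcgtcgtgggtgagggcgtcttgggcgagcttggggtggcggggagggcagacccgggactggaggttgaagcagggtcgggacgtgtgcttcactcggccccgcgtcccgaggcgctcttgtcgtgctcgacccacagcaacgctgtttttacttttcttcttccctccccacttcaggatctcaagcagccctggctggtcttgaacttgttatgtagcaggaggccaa
Ccnb1 carries CCAAT matches beginning 99 and 67 bases before the start and TTTAAA beginning 42 bases before it. Kif11 has CCAAT on the opposite strand 45 bases before and TTTGAA on the opposite strand 19 bases before the start, and Ube2c has 6 CCAAT matches and a TTTGAA match 29 bases before. Bub1b has CCAAT on the opposite strand 113 bases before the start and its TTTGAA 40 bases after it, outside the printed stretch. Cdc25b held a CCAAT match only, Birc5 a single TTTAAA 220 bases before the start, and Pttg1 none of the letters. The Pttg1 window lies wholly inside the GENCODE span of the gene (chr11:43420250-43426251), so it holds no sequence before the GENCODE start. The same is true of Kif2c, which is counted above among the lower members.

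Of the 4 cyclin genes, 3 fell, and Cdk1, which encodes the kinase of cyclin B, did not pass. Ccnb1, the main mitotic cyclin (ENSMUSG00000041431.16, chr13:100778650-100786570 in GRCm38), measured 9790.1, 8023, 8457, 9478 and 8374 normalized counts in control replicates 2 to 6 and 4964, 5888, 8044, 7108 and 4521 in deletion-labelled replicates 7, 8, 10, 11 and 12. Replicate 10 lay inside the control range and the other 4 below it (log2 difference of -0.56 with an SE of 0.14, adjusted p = 0.00766 by limma). Its transcripts share 27.7% of their 31-base words with those of other genes, mostly the pseudogene Ccnb1-ps, so its value is uncertain. Ccnb2, a related B-type cyclin, fell from 5864 ± 168 to 4996 ± 721 (log2 difference -0.24, limma adjusted p = 0.0373), and Ccnf, the F-box cyclin of G2, from 3572 ± 328 to 2995 ± 444 (log2 difference -0.26, limma adjusted p = 0.0492); both calls were lost in 7 of the 10 fits that left out 1 sample, and under 4 and 7 of the other alternatives. Ccna2, the S and G2 cyclin, measured 10724 to 11932 in controls and 8949 to 11919.6 in deletion-labelled samples and did not pass (log2 difference -0.17, limma adjusted p = 0.128). Cdk1 measured 5782, 5944, 5698, 6384 and 6293 in controls and 5333, 5601, 6517, 6559 and 5414 in deletion-labelled samples. Replicates 10 and 11 were the highest of all 10 samples and replicates 7, 8 and 12 the lowest, with a log2 difference of -0.04 (95% interval -0.18 to 0.11).

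Both Cdc25 phosphatase genes, whose products activate Cdk1, fell with no overlap. Cdc25b (chr2:131186949-131198497) measured 7839.8, 7965, 7913, 8292 and 7787 in controls and 6678, 7082, 6594, 6629 and 6261 in deletion-labelled samples. All 5 deletion-labelled values were close together and below every control (log2 difference of -0.26 with an SE of 0.04, adjusted p = 0.00119 by limma), the smallest adjusted p of the 35 genes. Cdc25c measured 1055, 1112, 1163, 1184 and 1060.3 in controls and 897, 853, 983, 999 and 697 in deletion-labelled samples, with replicate 12 lowest (log2 difference of -0.34 with an SE of 0.09, adjusted p = 0.0127 by limma). The transcription factor gene Foxm1 (chr6:128362967-128376146), which activates many of the other members, measured 5663, 5427, 4871, 5237 and 5189 in controls and 3780.3, 4087, 4479.6, 4204 and 3258 in deletion-labelled samples. Again every deletion-labelled value lay below every control (log2 difference of -0.42 with an SE of 0.08, adjusted p = 0.0021 by limma). Foxm1 shares exons on the same strand with Tex52 and Gm44596 in the annotation, though only 1.96% of its 31-base words occur in other genes.

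**Figure D2:**
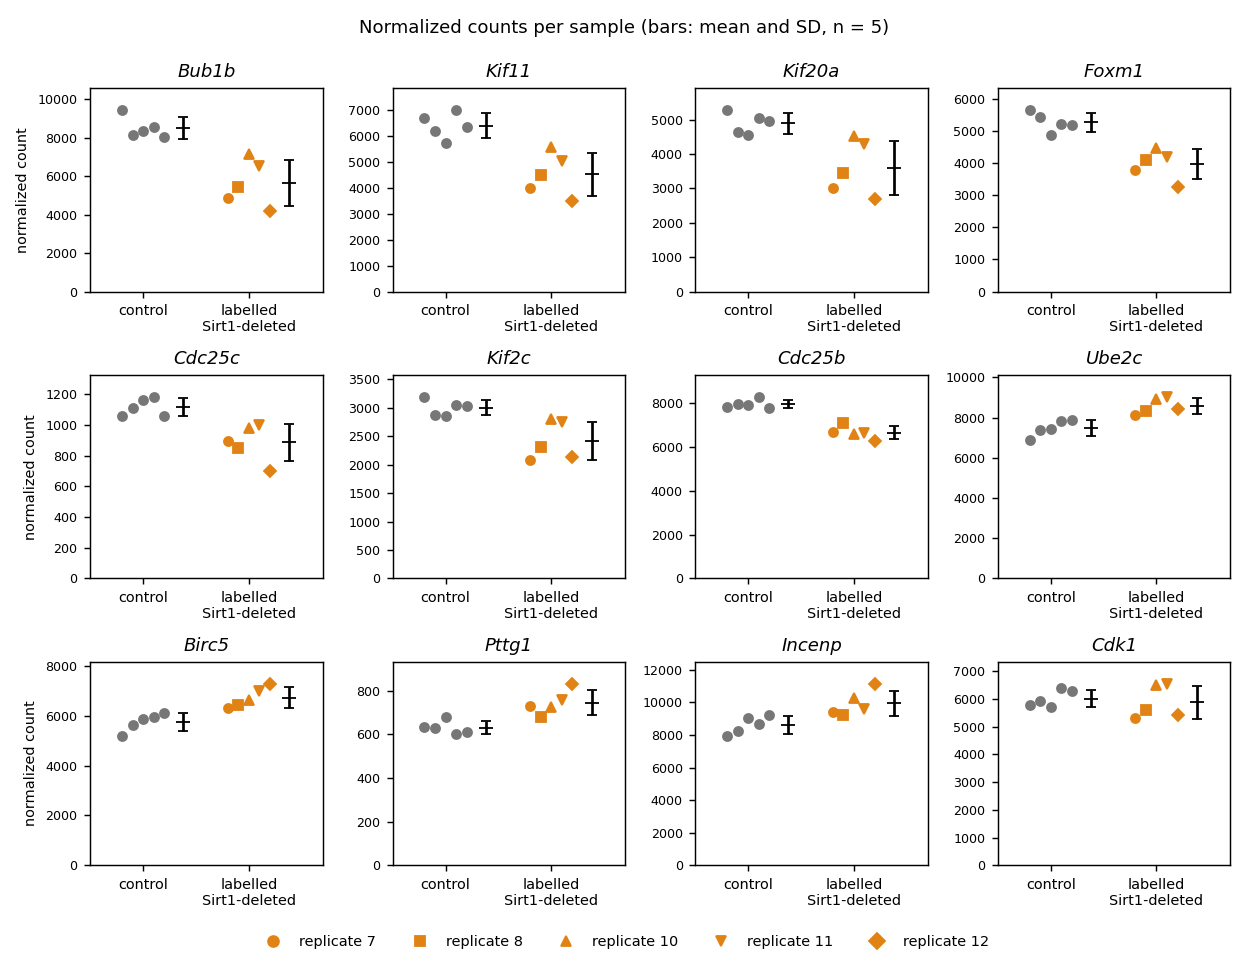
Normalized counts (vertical axes, from 0) of 12 member genes in each sample, controls as grey circles and labelled Sirt1-deleted replicates by symbol, with mean and SD (n = 5) beside each group. The first 7 panels are the members whose deletion-labelled values all lie below the controls, then come the 4 that rose, and Cdk1 is shown as a gene that did not change past the threshold.

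None of the 3 mitotic kinase genes Plk1, Aurka and Nek2 passed. Plk1, which encodes the polo kinase of mitotic entry, measured 6396, 6101, 6248, 6783 and 6564 in controls and 5124, 5677, 6871, 6376 and 4825 in deletion-labelled samples, so that replicates 7, 8 and 12 lay below every control while replicate 10 lay above every control (log2 difference -0.16, 95% interval -0.35 to 0.02, limma adjusted p = 0.151). Its transcripts share 14.8% of their 31-base words with other genes, mostly Plk-ps1. Aurka, the spindle pole kinase, and Nek2, a centrosome kinase, had log2 differences of -0.07 and -0.17 (limma adjusted p = 0.558 and 0.102).

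The chromosomal passenger complex, which corrects faulty kinetochore attachments, was measured through 3 genes that moved in different directions. Aurkb, its kinase, fell from 5011 ± 158 to 4099 ± 589.5 (log2 difference of -0.30 with an SE of 0.08, adjusted p = 0.015 by limma), with replicate 10, at 4813, above the lowest control (4734). Birc5 (chr11:117849251-117855743), which encodes survivin, measured 5179, 5607, 5869, 5967 and 6107 in controls and 6309, 6411, 6623, 6997 and 7288 in deletion-labelled samples. Every deletion-labelled sample was above every control, replicate 12 the most (log2 difference of 0.23 with an SE of 0.06, adjusted p = 0.00914 by limma). Incenp, the scaffold, measured 7944, 8218, 9053, 8673 and 9250.5 in controls and 9429, 9241, 10293, 9612 and 11159.5 in deletion-labelled samples. Replicate 8, at 9241, fell just short of the highest control, at 9250.5, and the others were above it (log2 difference of 0.20 with an SE of 0.06, adjusted p = 0.0213 by limma); the call was lost without control replicate 2 or 3. On the same scale, Incenp and Birc5 rose by 15.2% and 17.1% and Aurkb fell by 18.9%; the difference between these genes was not tested.

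Of the 5 kinetochore genes none passed the threshold, and of the 4 spindle checkpoint genes 2 fell; the difference between these groups was not tested. Cenpa, the centromeric histone, and Nuf2, a subunit of the microtubule-binding NDC80 complex, had log2 differences of -0.14 and -0.13 with limma adjusted p of 0.0647 and 0.0574. Cenpa passed in 2 and Nuf2 in 3 of the 10 alternatives with all samples, and each passed in 2 of the fits that left out 1 sample. Ndc80 itself differed by 0.06 (95% interval -0.07 to 0.20) and the kinetochore motor gene Cenpe by -0.01. Cenpf had the widest control spread of all members relative to its mean (a coefficient of variation of 25%, 3548 to 6300.0 normalized counts), so its interval of -0.29 to 0.32 allows a change in either direction. Bub1b (chr2:118598211-118641591), which encodes the checkpoint protein BUBR1, fell most of the 35 genes. It measured 9442, 8127, 8358, 8566 and 8019 in controls and 4860.5, 5455, 7141, 6524 and 4181 in deletion-labelled samples. Replicates 12 and 7 were lowest and replicate 10, the highest, was still under every control (log2 difference of -0.62 with an SE of 0.12, adjusted p = 0.00271 by limma, a change of -34.9%). Ttk, which encodes the checkpoint kinase MPS1, fell from 1519 ± 84.2 to 1299 ± 175 (log2 difference -0.23, limma adjusted p = 0.0485), a call lost in 8 of the 10 fits that left out 1 sample and in 5 other alternatives. Bub1, the kinase that recruits BUBR1, measured 3754 to 4577 in controls and 2682 to 4149 in deletion-labelled samples (limma adjusted p = 0.0568). Mad2l1, whose product inhibits the APC/C, differed by -0.05 (95% interval -0.18 to 0.08).

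All 3 genes of spindle motors and assembly fell. Kif11 (chr19:37376403-37421859), the kinesin that pushes spindle poles apart, measured 6693, 6181, 5720.3, 6996 and 6349 in controls and 3977, 4468, 5558, 5035 and 3495 in deletion-labelled samples. The groups were separate, with replicate 12 lowest (log2 difference of -0.52 with an SE of 0.11, adjusted p = 0.00372 by limma). Kif2c, a kinesin that takes microtubules apart at kinetochores, measured 3195, 2876, 2862, 3050.0 and 3033 in controls and 2084, 2319, 2806, 2748 and 2139.5 in deletion-labelled samples. Replicates 10 and 11 came within reach of the lowest control (2862) without crossing it (log2 difference of -0.32 with an SE of 0.08, adjusted p = 0.011 by limma). Tpx2, the activator of Aurora A on the spindle, fell from 8534 ± 374 to 7219 ± 1037 (log2 difference -0.25, limma adjusted p = 0.0328). Its call was lost in 7 of the 10 fits that left out 1 sample and in 5 of the 10 alternatives with all samples. Of the 3 central spindle and cytokinesis genes, Kif20a alone fell. It measured 5289.8, 4640.2, 4561, 5042 and 4973 in controls and 3017, 3447, 4525, 4287 and 2687 in deletion-labelled samples. Replicate 10 (4525) lay just under the lowest control (4561), and replicates 7, 8 and 12 far under it (log2 difference of -0.47 with an SE of 0.12, adjusted p = 0.011 by limma). Prc1, the bundler of central spindle microtubules, differed by -0.15 (limma adjusted p = 0.149), and Kif23, a kinesin of the midzone, by -0.01 (95% interval -0.16 to 0.14).

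Of the 4 genes that act at anaphase, 2 rose and none fell. Ube2c (chr2:164769898-164778822), the ubiquitin-conjugating enzyme of the APC/C, measured 6906, 7406, 7438, 7846 and 7859.8 in controls and 8123, 8345, 8930.3, 9039 and 8419 in deletion-labelled samples. Every deletion-labelled sample was above every control, and here replicates 10 and 11 were the highest (log2 difference of 0.19 with an SE of 0.05, adjusted p = 0.0096 by limma). Pttg1 (chr11:43420250-43426251), which encodes securin, measured 632, 631, 677, 601 and 611 in controls and 729, 679, 726, 759 and 833 in deletion-labelled samples. Replicate 8 (679) exceeded the highest control (677) by little, and replicate 12 by most (log2 difference of 0.24 with an SE of 0.07, adjusted p = 0.0177 by limma). Cdc20, the APC/C activator that securin destruction depends on, measured 6334, 5749.7, 5937, 6194 and 6309 in controls and 4415, 5104, 6159, 5828 and 3766 in deletion-labelled samples. Replicates 7, 8 and 12 lay below every control and the other deletion-labelled samples did not (log2 difference -0.29, limma adjusted p = 0.0549). Of its 31-base words, 25.5% occur in other genes, mostly Gm7856, and its value is uncertain. Espl1, the separase gene, differed by -0.17 (limma adjusted p = 0.197). Of the remaining members, Mki67, which encodes the proliferation antigen Ki-67, fell from 37689 ± 2602 to 32103 ± 3103 (log2 difference of -0.23 with an SE of 0.07, adjusted p = 0.0203 by limma). That call was lost without control replicate 5 or deletion-labelled replicate 7 or 8, with the exact rank-sum test, and after correcting for the length and GC content of transcripts, an alternative chosen after seeing the data (log2 difference -0.13, limma adjusted p = 0.11). Top2a, the topoisomerase that untangles sister chromatids, did not pass (log2 difference -0.04, 95% interval -0.17 to 0.10).

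The members varied more between deletion-labelled samples than between controls. In controls the median SD of a member was 0.0765 on the log2 scale (0.0819 for the 7498 genes above the members' floor). In deletion-labelled samples it was 0.186 (0.120 for those genes). The SD was larger in the deletion-labelled group for 29 of the 35 members, including all 14 that fell, against 73.4% of those genes. Deletion-labelled replicates 7, 8 and 12 had 28, 26 and 26 members below the lowest control, whereas replicates 10 and 11 had 7 and 12. Replicate 12 was the lowest of all 10 samples for 16 members and replicate 7 for 12. Above the highest control lay 12 members in replicate 10, 6 in replicate 11, and 3 to 5 in the other deletion-labelled samples.

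**Figure D3:**
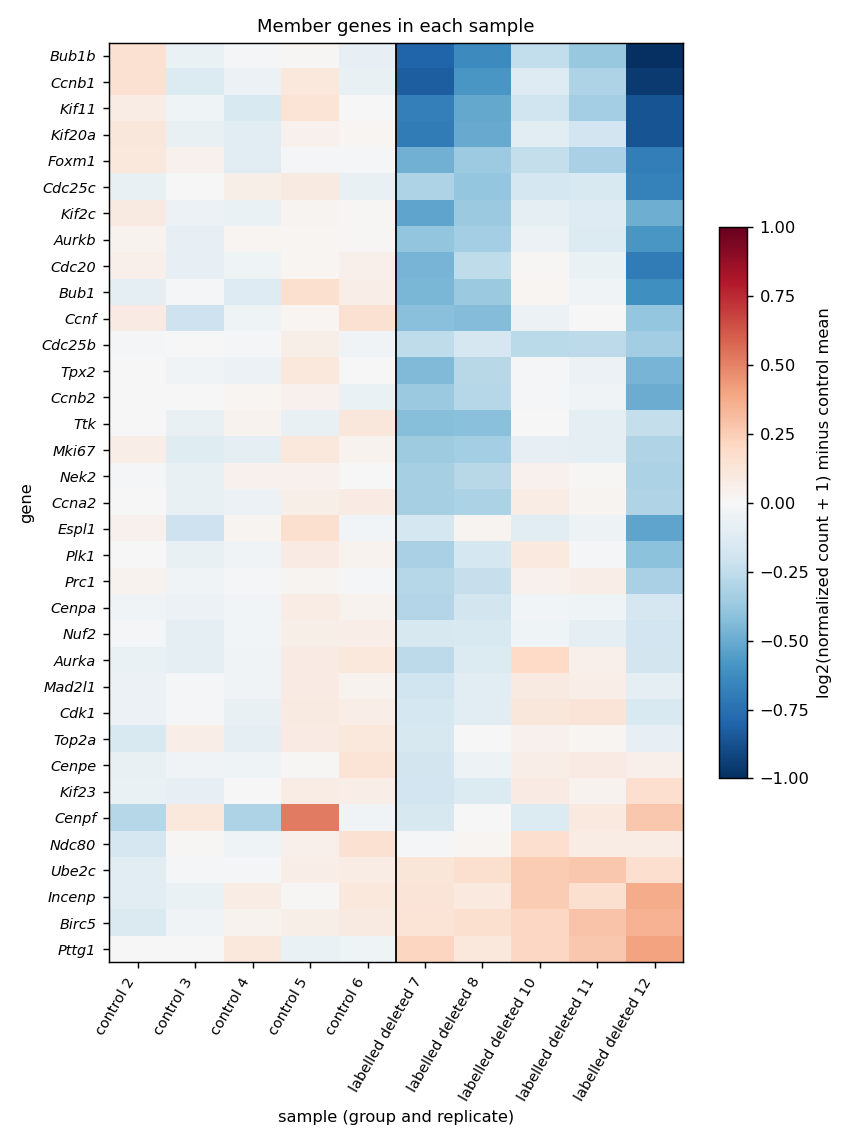
Each row is a member gene and each column a sample, coloured by log2(normalized count + 1) minus the mean of the 5 controls, with genes ordered by their group difference. Deletion-labelled replicates 7, 8 and 12 are blue over most rows, replicates 10 and 11 are paler, and the bottom rows (Ube2c, Incenp, Birc5, Pttg1) are red in all 5 deletion-labelled samples.

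For 25 members (71.4%), replicates 7, 8 and 12 were all below the lowest control. So were 23.9% of all tested genes and 38.2% of the 7498 genes above the members' floor. For 13 of the 25 members, replicates 10 and 11 were both at or above the lowest control (37.1% of members, 4.8% of all tested genes and 7.68% of the 7498). The 13 are Mki67, Ccnb2, Ccna2, Cdk1, Bub1, Aurka, Plk1, Cdc20, Cenpa, Nek2, Mad2l1, Prc1 and Ccnf. This pattern was noticed in the values and is a description of 5 samples, with no test. Among 83 other mitosis genes the pattern of the 13 held for 6, no larger a share than among the 7498 genes. Replicates 7, 8 and 12 were all below the lowest control for 45 of the 83, a larger share than among the 7498. In the same replicates the median difference of the members from the control mean was -0.31, -0.23 and -0.32 on the log2 scale for 7, 8 and 12, and 0.01 and -0.04 for 10 and 11. By the definition of separate groups, the 7 lower members were below every control in replicates 10 and 11 as well, and Ube2c, Birc5 and Pttg1 above every control. Incenp, which also rose, was above every control in both.

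Several other measures moved with the group. Cdkn1a, which encodes the Cdk inhibitor p21, was 242 to 335 normalized counts in controls and 888, 1001, 992, 1542 and 1117 in deletion-labelled replicates 7, 8, 10, 11 and 12 (log2 difference of 1.88 with an SE of 0.14, adjusted p = 3.52e-05 by limma). It was highest in replicate 11 and lowest in replicate 7. Of 14 neutrophil markers, 13 rose, and their summed counts were 9091 to 12559 in controls and 28866 to 101108 in deletion-labelled samples, with 60283, 101108, 28866, 39707 and 44835 in replicates 7, 8, 10, 11 and 12. Of 13 macrophage and monocyte markers, 10 rose (sums of 2719 to 3102 in controls and of 5301, 6821, 4665, 4812 and 5694 in the same replicates). Replicates 10 and 11, with the fewest members below the controls, thus had the 2 lowest sums of each list among deletion-labelled samples. The order did not hold among the others. Replicate 8 had the highest sum of each list but was the lowest of all 10 samples for only 1 member. Replicate 12 was lowest for 16 members, and its neutrophil sum (44835) was near that of replicate 11 (39707). None of the 12 erythroid and none of the 10 B cell markers passed, with sums of 44726 to 136969 against 40675 to 163788 and of 559.8 to 1004 against 576 to 1153. No marker of these lists was at 0 in any sample. Of the 12 T lineage markers, 3 rose and 2 fell. Their sums in replicates 10 and 11 (244663 and 245635) lay inside the control range, and those in replicates 7, 8 and 12 (269366 to 273989) above the highest control (252007). Thy1 weighed heavily in the raised sums, with 90568.8, 82729.5 and 100216 in replicates 7, 8 and 12 against 47866.7 to 57489.9 in controls. Tcf7 went the other way (57388.3, 61017.6 and 49375.9 against 74745.5 to 80366.5), as did Cd5. Lat, Lck, Bcl11b and Cd3d, like Thy1, were above every control in replicates 7, 8 and 12, and none of the other T lineage markers was. Tcf7 and Cd5 were below every control in replicates 10 and 11 as well, so their falls were not particular to replicates 7, 8 and 12. The raised sums thus reflect several markers of the list but not all of them. The part of these cell types in the members' differences was not tested.

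**Figure D4:**
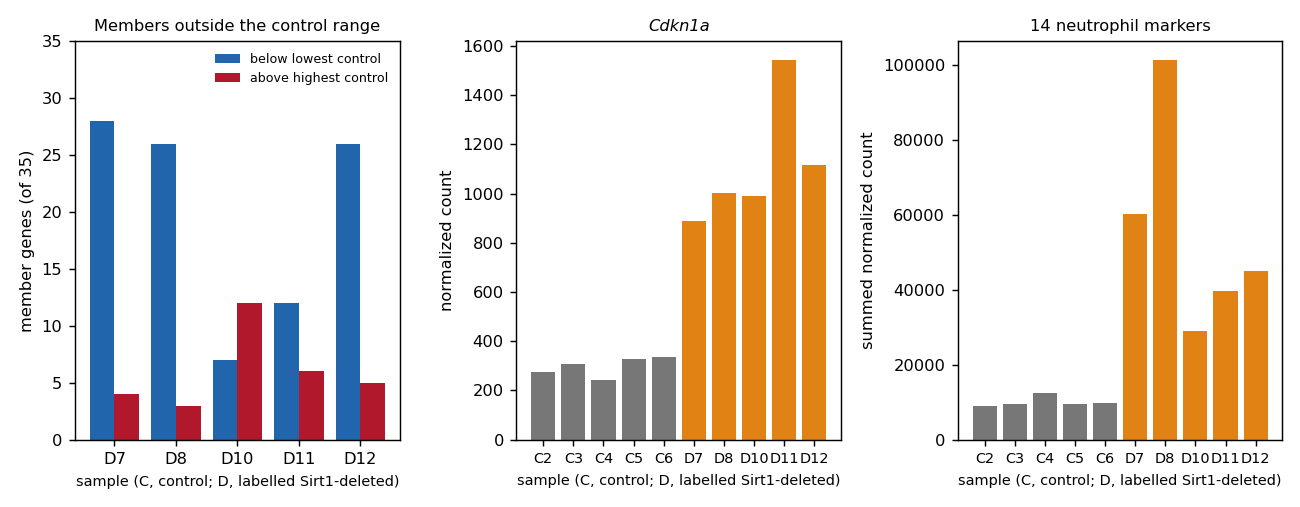
Left, the number of the 35 member genes below the lowest control and above the highest control in each labelled Sirt1-deleted replicate (D7 to D12); middle, Cdkn1a normalized counts and right, the summed normalized counts of 14 neutrophil markers, in controls (C, grey) and deletion-labelled samples (D, orange). Replicates 10 and 11 have 7 and 12 members below the controls against 26 to 28 in the others, while Cdkn1a is above every control in all 5.

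Transcript length and strand could bear on these values. The 4 members that rose had mean coding-transcript lengths of 838 to 2140.5 bases (median 1556) and the 14 that fell 1531 to 5318 (median 2436). The ranges overlap, but the median was lower in the members that rose. In the 17 that did not pass, the median was 2483 bases. After a correction for length and GC content, chosen after seeing the data, 13 members were lower and 3 higher (17.5% and 15.9% of all genes). Among the members called lower, Mki67, Tpx2 and Ccnf no longer passed, with limma adjusted p of 0.11, 0.111 and 0.213, while Cenpa and Nuf2 did, with 0.0074 and 0.00862. Among those called higher, Pttg1 no longer passed (log2 difference 0.15, limma adjusted p = 0.133). In the annotation, exons of 9 members overlap genes on the opposite strand: Kif20a (Cdc23), Cdc25b (Spef1), Cdc25c (Gm3550), Ube2c (Tnnc2), Ccna2 (Exosc9), Plk1 (Gm44985), Cdc20 (Elovl1), Nek2 (Gm38037) and Prc1 (Rccd1). The libraries were strand-specific, but whether strand was used in quantification is not given in the sources used here.

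Other mitosis genes, 84 listed by function of which 83 were in the table, were called in both directions: 35 fell (42.2%) and 11 rose (13.3%), with a median log2 difference of -0.15. Among all tested genes 19.4% fell and 16.8% rose, and among the 7498 genes above the members' floor 30.9% and 17.4%. The shares of the other mitosis genes were near those of the members themselves (40% and 11.4%). The largest falls were in Kif4, the chromosome-arm kinesin (-0.58), Knl1, the kinetochore scaffold (-0.55), Sass6, a centriole cartwheel gene (-0.51), and Ckap5, a microtubule polymerase gene (-0.48), with limma adjusted p of 0.00287, 0.00571, 0.00308 and 0.00294. The largest rise was in Psrc1, from 2886 ± 252 to 4172 ± 380.1 (log2 difference of 0.53 with an SE of 0.07, adjusted p = 5.79e-04 by limma). Gtse1, named after its values were seen, rose from 2837 ± 170.1 to 3953 ± 353 (log2 difference of 0.48 with an SE of 0.06, adjusted p = 5.29e-04 by limma). Both are mitotic microtubule genes known to be induced by p53, and in both every deletion-labelled sample was above every control.

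Of 43 regulators of G2 and of the DREAM and APC/C complexes, 14 fell (32.6%) and 6 rose (14%), with a median of -0.10. These shares were near those of the 7498 genes above the members' floor (30.9% and 17.4%). Cdkn1a rose most. Tfdp2, an E2F partner gene (-0.59), and Anapc1, the largest APC/C subunit gene (-0.43), fell most, with limma adjusted p of 0.0046 and 0.00142. Wee1, the kinase that opposes Cdc25, fell from 2386 ± 89 to 1871 ± 253 (log2 difference -0.36, limma adjusted p = 0.00511). Among the RB family, Rbl1, a DREAM component, fell by 0.27 (limma adjusted p = 0.00313), and Rbl2 did not pass (log2 difference -0.10, limma adjusted p = 0.203). Rb1 (-0.38, limma adjusted p = 0.0411) and Lin54 (-0.17, limma adjusted p = 0.0479) fell too, but their calls were lost in 7 and 8 of the 10 fits that left out 1 sample. Lin54 is a gene of the MuvB core, whose other genes, named after their values were seen, were not called lower. Lin9 rose from 1277 ± 78.5 to 1601 ± 83 with separate groups (log2 difference of 0.33 with an SE of 0.06, adjusted p = 0.00192 by limma), and Lin37, Lin52 and Rbbp4 did not pass (log2 differences 0.04, 0.14 and -0.04, limma adjusted p = 0.723, 0.139 and 0.526). Mybl2, the MuvB partner that activates G2 genes, and E2f1, an S-phase activator, did not pass (log2 differences -0.16 and 0.10, limma adjusted p = 0.136 and 0.105).

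Genes of the preceding phases, 42 genes of G1/S and DNA replication, had falls and rises too: 14 fell (33.3%) and 6 rose (14.3%), with a median of -0.03. These shares too were near those of the 7498 genes above the members' floor (30.9% and 17.4%). Pola1, the catalytic subunit of the priming polymerase (-0.52), Rpa1, of the single-strand binding complex (-0.36), and Mcm6, of the replicative helicase (-0.30), fell most, and Ccnd3, a D-type cyclin (0.54), and Mcm3, of the same helicase (0.42), rose most (limma adjusted p = 0.00702, 0.0104, 0.0259, 5.05e-04 and 0.00168). Mcm2 fell by 0.24 (limma adjusted p = 0.0319), and the calls of Mcm6 and Mcm2 were lost in 4 and 6 of the 10 fits without 1 sample and in 3 and 4 other alternatives. The number of these genes called lower was 4 to 17 across the alternatives, 6 without control replicate 5 or deletion-labelled replicate 7. Upper-quartile rescaling raised the share of higher calls among all genes from 46.4% to 58.2%, and under it 10 members fell and 4 rose (14.9% and 20.7% of all tested genes).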

How the data were processed

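RNA of 10 leukemic spleens (5 labelled Sirt1-deleted, 5 control) was sequenced from strand-specific libraries. The deposited values are a normalized signal: gene counts that the authors normalized with DESeq, as the deposited file is named. kallisto 0.44.0, DESeq and the build mm10 are named per the submitters' processing notes; annotation and gene filters are not given in the sources used here. There were 0 other columns. Between 70.3% and 74.7% of values under 8.5 lay within 0.1 of a whole multiple of the best-fitting unit, so whole reads were not recovered and no count test was run. log2(value + 1) was fitted for 15276 genes with a mean of at least 10 by limma 3.58.1 in R 4.3.3 (group as the only term, intensity trend), with Benjamini-Hochberg adjustment over all of them at 0.05; the script was tested on simulated data. Fold changes on this scale understate those of low genes. Groups came from the genotype label. The members, lists, tests and alternatives were chosen with earlier results of these data known. Per-sample values are given for called members whose groups do not overlap and for those that rose. Of the other lists, the 5 called genes with the largest difference each, plus Cdkn1a, Mybl2, Lin54, E2f1, Rbl1, Wee1 and Mcm2, are named. Ccnb1, Cdk1, Plk1, Cdc20, Gtse1, Lin9, Lin37, Lin52 and Rbbp4 were added after their values were seen. Rbl2 was added in the same way, without the alternatives or the search for outliers. Alternatives were pseudocounts of 0.1 and 5, no filter or a minimum mean of 50, upper-quartile and quantile scaling, an exact rank-sum test, limma sample weights, limma without the trend, and omission of each sample; a length and GC correction (GENCODE M21, natural splines of 5 degrees of freedom, 15266 genes matched by symbol) was added after seeing the data. Coordinates are those of GENCODE M21 (GRCm38). Shared sequence was counted as 31-base words of a gene's transcripts that occur in another gene's.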

Additional observations from a re-analysis of the deposited data

Results flagged for a closer look

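Of 122 sets of 5 samples (the members and the other named genes in each group), 3 held a sample whose gap to its neighbour, divided by the range of the set, was above the critical value of 0.71; chance at 1 in 20 would give 6.1. Control replicate 3 was the lowest control for Aurkb, with 4734 normalized counts where the other 4 had 5056 to 5131 (ratio 0.812). Control replicate 2 was the highest control for Tfdp2, at 3067 against 1953 to 2258 (ratio 0.726). Deletion-labelled replicate 12 was the highest of its group for Mcm3, at 20166 against 15529 to 16505 (ratio 0.790).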

How the results depend on the processing

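No paired analysis was run. Controls and deletion-labelled samples carry different replicate numbers, and the labels do not say whether any of them share a leukemia, so a pairing is unknown. edgeR and DESeq2 were not run, since whole reads were not recovered. The median log2 difference of the members stayed negative throughout, from -0.230 to -0.110. The number of members called lower was 7 with the exact rank-sum test and 22 with sample weights, and 9 to 22 across the fits that left out 1 sample; 3 or 4 were higher in every fit. All tested genes called lower and higher were 1968 and 1691 with the rank-sum test. For other mitosis genes that test gave 17 lower and 6 higher. Regulators called lower were 7 with the rank-sum test, 9 without the trend and 9 after quantile normalization, and 8 to 17 when 1 sample was left out; 3 were higher with the rank-sum test and 3 to 6 when 1 sample was left out. G1/S and replication genes called lower were 4 with the rank-sum test, 6 without the trend, 9 after quantile normalization, 9 after the length and GC correction, 7 after upper-quartile rescaling, and 6 to 16 when 1 sample was left out; upper-quartile rescaling gave 10 higher. For each of these the cause was not tested, except that the rank-sum test can call only genes whose groups do not overlap.

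Signs changed only for genes near 0 that passed in no fit. Upper-quartile rescaling gave Top2a 0.023, Cdk1 0.022, Cenpe 0.051, Kif23 0.053, Mad2l1 0.012 and Rbbp4 0.016. Quantile normalization gave Cdk1 0.0071, Cenpe 0.035 and Kif23 0.053, sample weights gave Cenpf -0.076, and the length and GC correction gave Top2a 0.032, Cenpe 0.072, Kif23 0.048, Lin37 -0.018 and a log2 difference of Rbbp4 of 0.0094. Leaving out 1 sample, Cenpf ranged from -0.0633 to 0.144, Cenpe from -0.0302 to 0.0354, Kif23 from -0.0495 to 0.0395 and Lin37 from -0.00689 to 0.0896. The files give no raw depth, so no counting error could be derived.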
